A study of Homo sapiens with 2 samples.

Results

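Head-to-head overlapping genes are neighbours on opposite strands whose 5′ ends run past each other, so that the first stretch of each gene is covered by the other. Among the protein-coding genes of chromosomes 1 to 22 with a listed count, 834 such pairs were found, in which a minus-strand gene began before its plus-strand partner and ended inside it. The pairs hold 1641 genes, 8.85% of the 18541 protein-coding genes with a count, and 27 of these genes belong to 2 pairs. Gene spans came from GENCODE version 44 on GRCh37, the build named hg19 by the authors, so the models can differ from those counted. The rule used positions and strands, not counts. All values are from LNCaP, an androgen-sensitive prostate carcinoma line, in 1 condition: 48 h in medium in which 10% charcoal-stripped FBS replaced normal serum, with 10 mM HEPES, that is, without androgen. Strand-oriented read pairs of 75 nt were obtained from the poly(A)+ RNA of 2 biological replicates, and the deposited counts hold both replicates in 1 column. No value therefore has a replicate error, and no test between groups was possible.

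Most mammalian promoters that lie in CpG islands can start transcription in both directions, and closely spaced divergent genes often share such a promoter region. Where the annotated first exons of the neighbours pass each other, the same DNA is transcribed from both strands, and the 2 RNAs hold complementary stretches at their 5′ ends. By the annotation used, KRT8 and KRT18, the keratins of simple epithelia, form such a pair. The transcripts marked as representative of these 2 genes do not overlap head to head.

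The counts of all 64081 listed genes sum to 9495309 read pairs, or 6.39% of the 148700190 uniquely placed pairs. Another 93.5% of the uniquely placed pairs were assigned to no gene. The head-to-head genes held 363810 of the counted pairs. The methods name library type fr-secondstrand for the mapping and the reverse strand setting for counting; under both settings together, a count listed for a gene comes from read pairs of the strand opposite to it. In a head-to-head overlap this is the strand of the partner. Whether the deposited counts were made with both settings was not tested. A listed count is therefore not taken here as the level of the named gene's own RNA. The summed count of the 11 luminal prostate markers was 7884, of which KRT8 held 6947; the median of the 11 was 36 and none was at 0. The 4 stromal markers had 6 to 15 counts each and 40 in sum, and the 3 leukocyte markers had 0 or 1, with CD3E at 0. All intervals given are 95% intervals. Those of counts (exact Poisson) and of shares (exact Clopper-Pearson) cover counting error only. Those of medians are order-statistic intervals that reflect the spread between genes, which are not replicates.

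The sequences before 5 starts in 3 pairs are shown because these pairs mark the ends of the range of counts described further on: YARS1/S100PBP had nearly equal counts, AGAP2/TSPAN31 had the highest sum, and RUVBL1/EEFSEC paired the second highest sum with a count of 0. Each run is the 250 nt before the outermost annotated start, read 5′ to 3′ on the gene's own strand of GRCh37, and capitals mark matches on either strand to TATAAA (the core of the TATA box), to CCAAT (bound by NF-Y) or to GGGCGG (bound by SP1). Of the 250-nt windows of all protein-coding genes, 9.94% held TATAAA, 32.9% held CCAAT and 49.3% held GGGCGG; for the head-to-head genes the shares were 6.09%, 27.3% and 47.1%. The letters are a description and say nothing of a factor.
YARS1 (chr1:33283633-33283882, minus strand, inside an intron of S100PBP): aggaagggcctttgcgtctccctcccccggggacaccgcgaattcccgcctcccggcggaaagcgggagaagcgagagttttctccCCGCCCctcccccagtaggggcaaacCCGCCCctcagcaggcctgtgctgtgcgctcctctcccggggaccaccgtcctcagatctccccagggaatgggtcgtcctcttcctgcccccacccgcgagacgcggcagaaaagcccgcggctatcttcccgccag
S100PBP (chr1:33282118-33282367, plus strand, inside an intron of YARS1): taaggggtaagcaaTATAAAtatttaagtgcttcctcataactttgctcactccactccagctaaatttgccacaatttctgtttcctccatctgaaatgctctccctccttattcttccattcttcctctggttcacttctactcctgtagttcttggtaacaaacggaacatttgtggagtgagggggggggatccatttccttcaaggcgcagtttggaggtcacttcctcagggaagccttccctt
AGAP2 (chr12:58135941-58136190, minus strand, inside an intron of TSPAN31): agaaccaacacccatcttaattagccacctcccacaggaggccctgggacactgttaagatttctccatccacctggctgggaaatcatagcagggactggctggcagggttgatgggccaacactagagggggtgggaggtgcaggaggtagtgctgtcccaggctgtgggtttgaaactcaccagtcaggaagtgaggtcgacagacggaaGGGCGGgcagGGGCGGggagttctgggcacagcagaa
TSPAN31 (chr12:58131546-58131795, plus strand, inside a coding exon of AGAP2): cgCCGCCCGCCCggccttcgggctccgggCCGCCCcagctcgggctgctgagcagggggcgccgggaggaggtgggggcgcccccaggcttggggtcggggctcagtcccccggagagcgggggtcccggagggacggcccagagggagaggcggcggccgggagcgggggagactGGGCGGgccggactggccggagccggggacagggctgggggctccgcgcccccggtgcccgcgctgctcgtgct
RUVBL1 (chr3:127872758-127873007, minus strand, inside an intron of EEFSEC): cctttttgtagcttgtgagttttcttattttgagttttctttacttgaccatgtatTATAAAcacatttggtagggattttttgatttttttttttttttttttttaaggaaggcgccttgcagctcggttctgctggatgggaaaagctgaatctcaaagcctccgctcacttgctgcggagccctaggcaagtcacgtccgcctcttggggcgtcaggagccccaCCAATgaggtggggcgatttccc

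In the 2 pairs shown from both sides, the windows differed in base composition. Before YARS1 stood 22 CpG dinucleotides and 2 GGGCGG matches at 68.8% GC, whereas before S100PBP, on the other side of the overlap, stood 2 CpG and a TATAAA at 44.8% GC. Before TSPAN31, in coding sequence of AGAP2, stood 30 CpG and 4 GGGCGG matches at 82.4% GC. The window before AGAP2 held 4 CpG and 2 GGGCGG matches at 58.4% GC. The window before RUVBL1 held 8 CpG, 1 CCAAT and 1 TATAAA at 45.2% GC.

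The overlaps were mostly short. The spans shared a median of 819.5 nt (quartiles 358.25 and 2342.5 nt), with a range from 2 to 126460 nt; 53 overlaps were under 100 nt and 93 were over 10000 nt. Exons of both genes covered at least 1 shared nucleotide in 633 pairs (75.9%) and none in 201 pairs (24.1%). Convergent overlapping pairs, whose 3′ ends pass each other, shared exonic sequence in 1025 of 1151 pairs (89.1%). Over all head-to-head pairs the median of the shared exonic sequence was 122.5 nt, against 314 nt in convergent pairs, and the maximum was 1649 nt, against 8870 nt. In the 633 pairs with any, shared exonic sequence made up a median of 32.5% of the overlap, and in 129 pairs it was the whole overlap. Long overlaps did not hold more of it: Spearman's rho of overlap length and shared exonic nt was -0.07 over the 834 pairs, which is no finding. Overlaps of 100 to 1000 nt had a median GC content of 64.6%, those of over 1000 to 10000 nt 57.0%, and those over 10000 nt 44.0%.

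**Figure D1:**
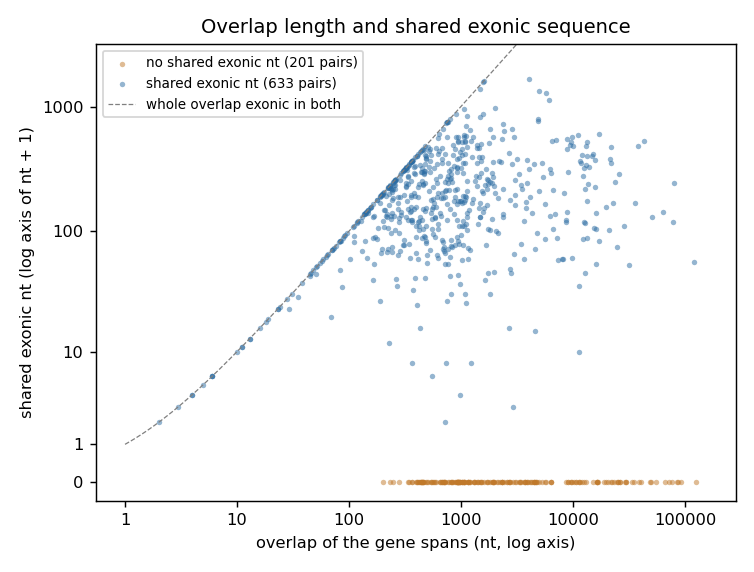
Overlap of the gene spans (nt, log axis) against the nucleotides exonic in both genes (log axis of nt + 1) for the 834 head-to-head pairs. The dashed line marks overlaps that are exonic in both genes over their whole length, as in 129 pairs; the 201 pairs without shared exonic sequence lie at 0.

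In most pairs the representative transcripts did not overlap each other head to head. The canonical transcripts of both genes, the single transcript that the annotation marks as representative, overlapped head to head in 62 pairs (7.43%), by a median of 392 nt. Among the 827 pairs with a canonical transcript in both genes, the canonical starts were a median of 1182 nt apart (quartiles 201.5 and 13252.5 nt), and in 339 pairs (41.0%) they lay up to 1000 nt apart without overlap. Shared nucleotides were coding in at least 1 of the genes in 328 pairs and in both genes in 32 pairs. The largest total of shared nucleotides coding in both genes, 293 nt, was in TMEM86B, a lysoplasmalogenase gene, and AC010327.2. It was followed by 246 nt in TRMT2A and RANBP1, a tRNA methyltransferase and a Ran-binding protein, with counts of 20 and 256. FAM120AOS and FAM120A shared 243 nt of coding sequence, with counts of 970 and 15. These last 2 pairs were named after their values were seen.

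The head-to-head genes had more counts than protein-coding genes at large. Their median count was 31 (28 to 36; quartiles 7 and 126), against 7 (6 to 7) for all protein-coding genes and 5 for those in no head-to-head pair. At least 10 counts were listed for 1151 of the 1641 genes (70.1%), beside 45.0% of all protein-coding genes. At least 1000 counts were listed for 70 (4.27%), beside 2.07%, and 0 counts for 165 (10.1%), beside 25.4%. Per kb of exonic length the medians were 5.72 and 1.29 counts, so the gap was also present per length. Strand made no difference to the median: the 820 minus-strand genes and the 821 plus-strand genes both had 31. Because genes are not replicates, these shares are a description without a test.

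Other arrangements of neighbours had other levels. The 2269 genes of convergent overlapping pairs had a median count of 86, with 81.0% at or above 10. The 1563 genes of divergent pairs that start within 1 kb of each other without overlap had a median of 11, with 54.3% at or above 10. Head-to-head genes lay between these groups. Of the head-to-head genes, 331 also overlapped a convergent neighbour, and these had a median of 129; the other 1310 had a median of 23, beside 5 for all protein-coding genes without a convergent overlap. At the edge of the rule, the 9 pairs with overlaps of up to 10 nt had sums of 12 to 923 counts (median 30), and the 13 divergent pairs that missed it by under 10 nt had sums of 2 to 3953 (median 45).

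The listed count moved with the exons on the opposite strand. The 260 head-to-head genes with no exon of any gene opposite their own exons had a median count of 9, and none reached 1000 counts. With exons of the partner alone opposite (of both partners for a gene in 2 pairs), the median was 25 (786 genes); with exons of other genes alone it was 42 (134 genes); with both it was 97 (461 genes). Over all protein-coding genes the median was 3 for those with no exon opposite (11586 genes) and 25 for those with any (6955 genes). Per kb of exonic length, the medians of the same 4 classes of head-to-head genes were 1.96, 4.99, 7.87 and 16.0 counts.

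The number of exonic nucleotides opposite the partner showed the same order. From 0 through 1 to 100, over 100 to 300 and over 300 to 1000 nt, the median count was 17, 28, 35 and 68, and for the 14 genes over 1000 nt it was 180, with an interval from 2 to 1263. Where no other gene lay opposite, the medians were 9, 16, 22 and 37, and 39.5 for 8 genes over 1000 nt, with an interval from 0 to 1263. Exons of genes other than the partner went with larger values: 20 where there were none, then 60, 43, 96 and 204. Spearman's rho of the count was 0.22 with the nucleotides opposite the partner and 0.35 with those opposite other genes, over 1641 genes that share 1 pooled library and partly share exons. Of the 70 genes with at least 1000 counts, 46 (65.7%) lay opposite exons of other genes, against 36.3% of all head-to-head genes. Whether the transcripts of the opposite exons gave the counts was not tested.

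**Figure D2:**
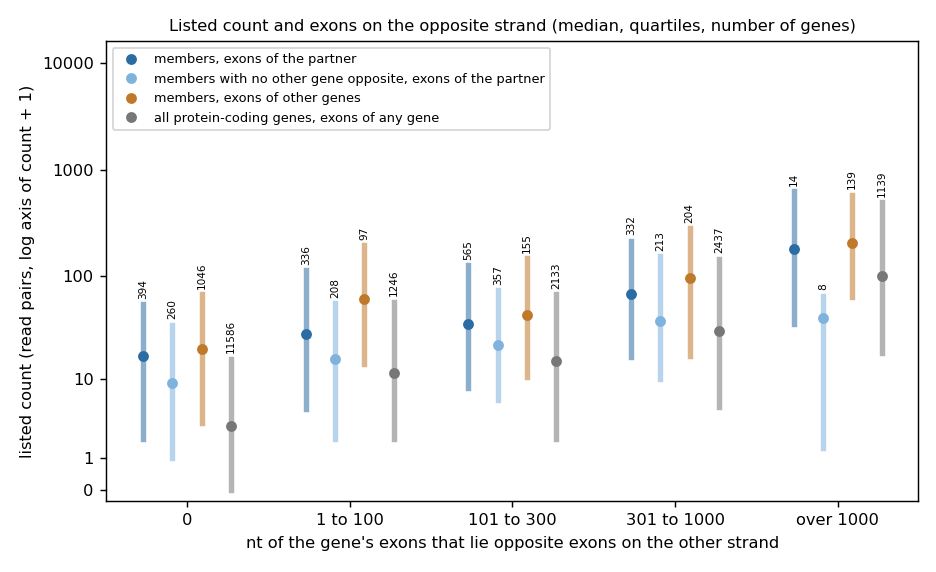
Listed count (read pairs, log axis of count + 1) by the number of a gene's exonic nucleotides that lie opposite exons on the other strand. Dots are medians, bars run from the lower to the upper quartile and the numbers give the genes in each class; the medians for exons of the partner go from 17 at 0 nt to 68 at over 300 to 1000 nt, and those for all protein-coding genes from 3 to 30.

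Within a pair, the counts of the 2 genes were often far apart. Both genes had at least 10 counts in 423 pairs (50.7%), 1 gene had in 329 (39.4%) and neither had in 82 (9.83%), of which 15 pairs had 0 on both genes. In convergent pairs both genes had at least 10 counts in 67.4%, and in divergent pairs in 31.8%. The median of the higher count was 99.5 and that of the lower count 10. Among the 752 pairs with at least 10 counts on a gene, the counts differed at least 10-fold in 377 (50.1%), and per kb of exonic length in 360 (47.9%). A 10-fold difference in counts occurred in 42.0% of such convergent pairs and in 55.2% of such divergent pairs. The plus-strand gene had the higher count in 413 pairs and the minus-strand gene in 398. In 733 of these 811 pairs (90.4%) the same gene was higher per kb. The rank correlation of the 2 counts was near 0 (Spearman's rho 0.05 over 834 pairs from 1 pooled library), which is no finding.

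**Figure D3:**
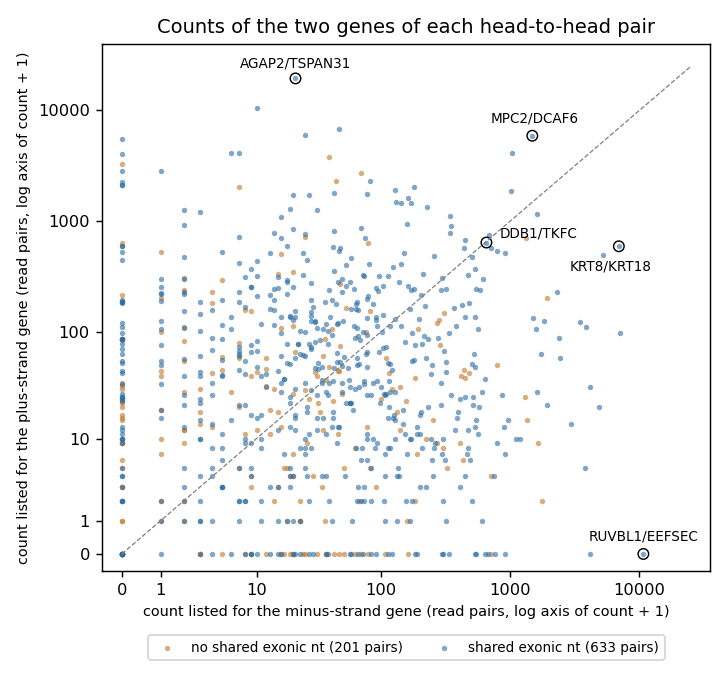
Count listed for the minus-strand gene against the count listed for the plus-strand gene of each of the 834 pairs (read pairs, log axes of count + 1), coloured by whether the genes share exonic nucleotides. The dashed line marks equal counts; points fill both sides of it, 413 above and 398 below, and 136 pairs have 1 gene at 0 and the other above.

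Pairs with more shared exonic sequence had higher median counts. The median count per gene was 18 in the 201 pairs without shared exonic nt, 28 in the 172 pairs with 1 to 100 nt, 35.5 in the 287 pairs with over 100 to 300 nt, 68 in the 167 pairs with over 300 to 1000 nt and 180 in the 7 pairs with more. Both genes had at least 10 counts in 34.8%, 45.9%, 55.1%, 67.1% and 57.1% of these classes. Convergent pairs ran from 22.5 to 232.5 over the same classes. The length of the overlap itself showed no relation to the summed count (Spearman's rho -0.02 over 834 pairs). A gene of at least 1000 counts occurred in 68 pairs, and the other gene of these pairs had a median of 31 counts, with under 10 in 18 pairs and 0 in 9.

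In 331 pairs neither gene had exons opposite its own from any gene but its head-to-head partners; 16 of these pairs include a gene with 2 such partners. The 249 of these with shared exonic nt had a median sum of 87 counts, and the 82 without had 32. Both genes had at least 10 counts in 44.2% and 25.6%. The pair with the highest sum was KRT8 (ENSG00000170421.7, chromosome 12, 53290971 to 53343738) and KRT18 (ENSG00000111057.6, 53342655 to 53346690), the keratins that build the filaments of luminal epithelial cells. KRT8 had 6947 counts (6785 to 7112) and KRT18 had 595 (548 to 645), or 1010 and 194 per kb of exonic length. Their spans overlapped by 1084 nt, of which 525 nt were exonic in both genes, or 135 nt with protein-coding transcripts only. Their canonical transcripts did not overlap head to head. Both genes have many processed pseudogenes, and whether these copies affected the 2 counts was not tested.

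MPC2, which encodes a subunit of the mitochondrial pyruvate carrier, and DCAF6, a substrate receptor of the CUL4 ubiquitin ligase that binds nuclear receptors, followed. MPC2 (ENSG00000143158.6, chromosome 1, 167885913 to 167906310) had 1488 counts (1413 to 1566) and DCAF6 (ENSG00000143164.11, 167905021 to 168045081) had 5920 (5770 to 6073). Their intervals were far apart, and DCAF6 held 79.9% of the pair's counts (79.0% to 80.8%). They shared 575 exonic nt in an overlap of 1290 nt, and their canonical transcripts overlapped by 390 nt. The 250 nt before the start of DCAF6 (chr1:167904771-167905020, plus strand, over a coding exon and an intron of MPC2) held 6 CpG and 1 CCAAT match, on the opposite strand (capitals). The window is shown because this pair had the highest sum among those whose canonical transcripts overlap.
DCAF6: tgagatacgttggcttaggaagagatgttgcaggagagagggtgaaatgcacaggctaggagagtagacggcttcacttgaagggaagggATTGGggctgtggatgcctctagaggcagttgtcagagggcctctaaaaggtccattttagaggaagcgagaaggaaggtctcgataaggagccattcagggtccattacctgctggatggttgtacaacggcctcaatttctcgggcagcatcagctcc

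TMEM205 and CCDC159, genes of a transmembrane and a coiled-coil protein, had 1032 and 4159 counts, with 665 shared exonic nt in an overlap of 1835 nt. MPC2/DCAF6 and TMEM205/CCDC159 were 2 of the 4 pairs with at least 1000 counts on both genes. The others, named after their values were seen, were NUMA1/LRRC51 with 1016 and 1859 and FAM161B/COQ6 with 1609 and 1171 counts. NUMA1 encodes a spindle pole protein and COQ6 an enzyme of coenzyme Q synthesis.

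In other pairs of this kind nearly all counts were listed for 1 gene. These were ranked by their sum after the values were seen. ENO3, the muscle form of enolase, had 4094 counts (3970 to 4221), and its partner PFN1, the actin-binding protein profilin of most cells, had 6 (upper bound 13.1). MROH8 had 3780 counts, and its partner RPN2, a subunit of the oligosaccharyltransferase that glycosylates proteins, had 5. The gene with the broad housekeeping role had the low count in these 2 pairs, which were picked by their counts. This is no finding about such genes, and it was not tested in other pairs. AIDA had 2960 and BROX, a protein with a BRO1 domain, had 14. SLC5A6, the vitamin transporter for biotin and pantothenate, had 2447 counts against 58 for ATRAID. FTSJ3, a methyltransferase of ribosome synthesis, had 1841 against 124 for PSMC5, an ATPase of the proteasome. The 2 Poisson intervals did not overlap in any of these pairs, which follows from picking large and unequal counts.

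**Figure D4:**
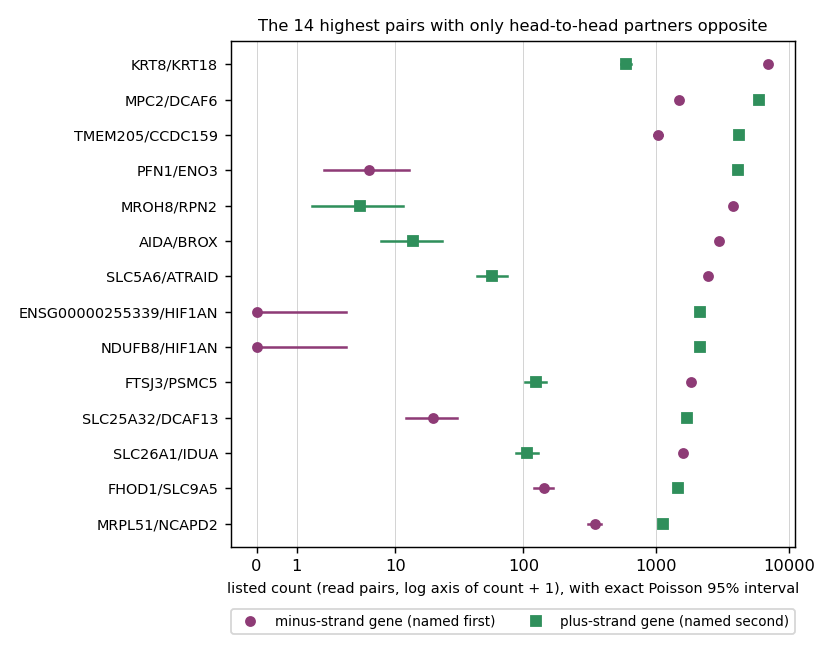
Listed counts (read pairs, log axis of count + 1) of both genes in the 14 pairs with the highest sums among the 331 in which no gene but a head-to-head partner has exons opposite either gene, with exact Poisson 95% intervals. The genes of each pair are apart by more than their intervals; the closest are MRPL51/NCAPD2, with 344 and 1121 counts, and the lower gene is at 0 in 2 pairs with HIF1AN.

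Where other genes also lay opposite, single counts reached higher values. The highest count of any head-to-head gene was 19470 (19197 to 19745), for TSPAN31 (ENSG00000135452.5, chromosome 12, 58131796 to 58144002), a tetraspanin. Its partner AGAP2 (ENSG00000135439.7, 58117544 to 58135940), a GTPase and GTPase-activating protein known from brain, had 21. They shared 189 exonic nt, all of them coding in AGAP2, while 1369 exonic nt of TSPAN31 lay opposite CDK4, the cyclin-dependent kinase of the G1 phase. RUVBL1 (ENSG00000175792.7, chromosome 3, 127783621 to 127872757), an ATPase of chromatin remodelling complexes, had 10749 counts (10547 to 10954). Its partner EEFSEC (ENSG00000132394.6, 127872324 to 128127489), the elongation factor for selenocysteine, had 0, which allows up to 3 counts (one-sided limit). They shared 343 exonic nt, and 622 nt of RUVBL1 lay opposite SEC61A1, which forms the protein channel of the endoplasmic reticulum.

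In the remaining pairs with the highest sums the counts were also unequal, to different degrees. KIAA1328 had 10558 counts and TPGS2, of a tubulin-modifying complex, had 10, with 91 shared exonic nt; no other gene lay opposite exons of KIAA1328, whereas 741 nt of TPGS2 lay opposite FHOD3. PTRH2, a mitochondrial peptidyl-tRNA hydrolase, had 7116 and VMP1, a membrane protein of autophagy, had 98; 244 nt of PTRH2 lay opposite CLTC, the clathrin heavy chain. TOX4 had 6787 and RAB2B, a small GTPase, had 47; 388 nt of TOX4 lay opposite METTL3, the RNA methyltransferase. SPATA1 had 5959 and GNG5, a G protein subunit, had 25, with 521 nt of SPATA1 opposite other genes. LHFPL5, known from hair cells of the inner ear, had 5567 and CLPS, the colipase of the pancreas, had 0; 1879 nt of LHFPL5 lay opposite SRPK1, a kinase of splicing factors. NUP88, a nucleoporin, had 5223 and RPAIN, an importer of replication protein A, had 492; 3786 nt of NUP88 lay opposite RABEP1. In TATDN1/NDUFB9 the counts were 4902 and 20. Here 212 nt of TATDN1 lay opposite other genes, and 2001 nt of NDUFB9 lay opposite MTSS1.

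The pairs with the most shared exonic sequence did not have the highest counts on both genes. SERINC4 and HYPK shared 1649 nt and had 3857 and 110 counts, and 1910 nt of SERINC4 also lay opposite SERF2. ABCB9, a lysosomal peptide transporter, and ARL6IP4 shared 1590 nt, the whole of their overlap, with 641 and 0 counts. Of ABCB9, 3262 nt lay opposite other genes. TMEM86B and AC010327.2 shared 1566 nt, also the whole overlap, with 2 and 299 counts. All 3061 exonic nt of AC010327.2 lay opposite ENSG00000276570. HDDC3 and UNC45A, a myosin chaperone, shared 1334 nt with 48 and 579 counts, and 169 nt of UNC45A lay opposite RCCD1-AS1. CIDEB and LTB4R2, a lipid droplet protein and a leukotriene receptor, shared 1276 nt with 4146 and 0 counts. Of CIDEB, 1577 nt lay opposite NOP9. DPAGT1, the first enzyme of N-glycan synthesis, and C2CD2L shared 1123 nt with 250 and 50 counts. Of DPAGT1, 576 nt lay opposite ENSG00000289124. LBHD1 and UQCC3, an assembly factor of respiratory complex III, shared 978 nt with 422 and 174. Of LBHD1, 533 nt lay opposite CSKMT.

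The 5 longest overlaps had no gene above 99 counts. SOX6, a developmental transcription factor, and C11orf58 overlapped by 126460 nt without a shared exonic nucleotide, and had 76 (59.9 to 95.1) and 99 (80.5 to 121) counts, with overlapping intervals. FBN2, a fibrillin of the extracellular matrix, and SLC27A6, a fatty acid transport protein, overlapped by 121173 nt and both had 0. C1orf141 and IL23R, the receptor of interleukin 23, overlapped by 92947 nt with 9 and 4 counts. ALDH1A2, an enzyme of retinoic acid synthesis, and LIPC, the hepatic lipase, overlapped by 87298 nt with 1 and 10. ABCB1, the drug efflux pump, and RUNDC3B overlapped by 85776 nt with 0 and 24. Of these 5 pairs, only FBN2/SLC27A6 shared exonic sequence, 56 nt.

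Nearly equal counts were also found. Among the 455 pairs with at least 100 counts in sum, the most equal were ACIN1 with 129 and C14orf119 with 130 counts; ACIN1 encodes a protein of the exon junction complex. DDB1, the adaptor of CUL4 ubiquitin ligases, had 657 (608 to 709) and TKFC, a triose kinase, had 643 (594 to 695). YARS1, the tyrosyl-tRNA synthetase, had 117 and S100PBP had 114. MRPL43, a protein of the mitochondrial ribosome, had 102 and TWNK, the mitochondrial DNA helicase, had 99. TBCK had 167 and AIMP1, a cofactor of the tRNA synthetase complex, had 162. In all 5 pairs the intervals of the 2 counts overlapped, which follows from picking the most equal pairs. Per kb of exonic length, YARS1 and S100PBP (12.0 and 12.4) and TBCK and AIMP1 (15.4 and 17.5) remained close. MRPL43 and TWNK had 28.5 and 23.9. Further apart were DDB1 and TKFC (42.3 and 79.1) and ACIN1 and C14orf119 (14.2 and 44.4). At the other end stood RUVBL1/EEFSEC, CLPS/LHFPL5 and CIDEB/LTB4R2 with 0 on a gene, and 2 genes without a symbol. ENSG00000273171 had 0 and SARM1, the NAD-cleaving enzyme of axon loss, had 4067, with 4418 nt of SARM1 opposite SLC46A1. ENSG00000269590 had 0 and WDR83 had 3302, with no shared exonic nt, while 1487 nt of WDR83 lay opposite other genes. Further pairs also had all counts on 1 gene, such as NDUFB8/HIF1AN with 0 and 2131 and ABCB9/ARL6IP4 with 641 and 0. The 5 pairs named as most unequal had larger counts than those.

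DNA repair and replication genes are known for bidirectional and overlapping promoters. Of the 141 genes of a list of this group with a count, 23 (16.3%) were in head-to-head pairs, beside 8.85% of all protein-coding genes. They had a median count of 29 (range 0 to 657), and 16 (69.6%) had at least 10 counts, against a median of 22.5 and 58.5% for the 118 listed genes in no such pair. Their partners had a median of 65. The repair gene had the higher count in 10 pairs and the partner in 13, and per kb of exonic length the repair gene was higher in 8. The choice of the list was made with earlier results known, and no test was run on it.

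The highest count listed for a repair gene was 657, for DDB1, named above, which also acts in nucleotide excision repair. As set out above, under the named settings such counts come from the strand opposite to the gene. Genes of base excision and strand-break repair named here had 2 to 87 counts. MUTYH, the adenine glycosylase, had 29 against 169 for TOE1. LIG3, a DNA ligase, had 58 against 21 for CCT6B, and 3754 exonic nt of LIG3 lay opposite RFFL. XRCC1, the scaffold of single-strand break repair, had 2 against 28 for PINLYP. RAD50 had 23 against 42 for IL5, and NBN, its partner in the MRN complex, had 19 against 4 for DECR1; neither pair shared exonic sequence. MDC1, the mediator that binds marked chromatin at breaks, had 17 against 37 for TUBB, a tubulin, over an overlap of 13 nt. BRCA2 had 3 against 0 for ZAR1L. MUS81, a structure-specific nuclease, had 87 against 279 for CFL1, cofilin.

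The counts listed for the checkpoint and replication genes named here, with the same limit, ranged from 0 to 336. CHEK2, the checkpoint kinase, had 336 counts and HSCB, a co-chaperone of iron-sulphur cluster assembly, had 97, with 293 shared exonic nt in an overlap of 384 nt. RAD1, of the checkpoint clamp, had 288 against 75 for BRIX1, without shared exonic nt. RAD17, which loads that clamp, had 137 against 40 for AK6. RPA3 had 201 against 17 for UMAD1, whereas RPA1, another subunit of replication protein A, had 8 against 71 for SMYD4. AP4M1 had 1756 and MCM7, of the replicative helicase, had 77; they shared 392 nt, the whole overlap, and 1418 nt of AP4M1 lay opposite TAF6. ORC4, of the origin recognition complex, had 57 against 0 for MBD5. POLE3, a subunit of DNA polymerase epsilon, had 0 against 182 for C9orf43, and POLK, a translesion polymerase, had 27 against 109 for CERT1. FANCF, of the Fanconi anaemia core complex, had 9 against 65 for GAS2, in an overlap that was exonic in both genes over all of its 315 nt. In mismatch repair, PMS1 had 2 against 7 for ORMDL1.

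Mitochondrial genes, named by symbols of ribosomal, respiratory, import and carrier families, gave 36 head-to-head genes of 250 (14.4%), beside 8.85% of all protein-coding genes. Their median count was 29 (range 0 to 449) and 29 of them (80.6%) had at least 10 counts, beside 70.1% of all head-to-head genes and 45.0% of all protein-coding genes. The other 214 genes of the list had a median of 8, with 48.6% at or above 10. Over all 37 pairs the mitochondrial gene had the higher count in 15 and the partner in 22, and per kb of exonic length the mitochondrial gene was higher in 21. The 5 pairs with the highest sums are given next; since no mitochondrial gene had over 449 counts, most of such a sum had to lie on the partner. NDUFAF3, an assembly factor of respiratory complex I, had 31 against 4151 for DALRD3, and 466 nt of DALRD3 lay opposite WDR6. NDUFB8, a complex I subunit, had 0 against 2131 for HIF1AN, the hydroxylase that inhibits HIF. SLC25A32, the folate carrier, had 20 against 1711 for DCAF13. MRPL51, of the mitochondrial ribosome, had 344 (309 to 382) against 1121 (1056 to 1189) for NCAPD2, a condensin subunit, though per kb of exonic length MRPL51 was the higher with 248 against 173. NDUFB9, named above, had 20 against 4902.

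The promoter sequences of the head-to-head genes depended on which start was taken. At the outermost annotated start, from 250 nt before to 50 nt after, the ratio of observed to expected CpG had a median of 0.71, as it had over all protein-coding genes (0.71), and 58.0% of windows were CpG-rich (ratio above 0.6 and GC above 50%), beside 55.8%. Divergent genes had a median of 0.88, with 87.7% CpG-rich. At the start of the canonical transcript the head-to-head genes had a median of 0.83, with 78.8% CpG-rich, beside 67.1% of all protein-coding genes and 85.2% of divergent genes. Convergent overlapping genes were close to the head-to-head genes at this start, with a median of 0.85 and 80.8% CpG-rich. Genes with shared exonic sequence had a median of 0.74 at the outermost start and those without 0.55, whereas at the canonical start both were close to each other, at 0.84 and 0.81. The letters GGGCGG occurred on either strand in 69.4% of the canonical windows of head-to-head genes, beside 62.6% of all and 71.3% of convergent genes. CCGGAAG, the core of ETS family sites, occurred in 22.6%, beside 14.4% of all, 27.2% of divergent and 20.3% of convergent genes. TATAAA occurred in 4.23%, beside 9.41% of all and 4.68% of convergent genes.

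**Figure D5:**
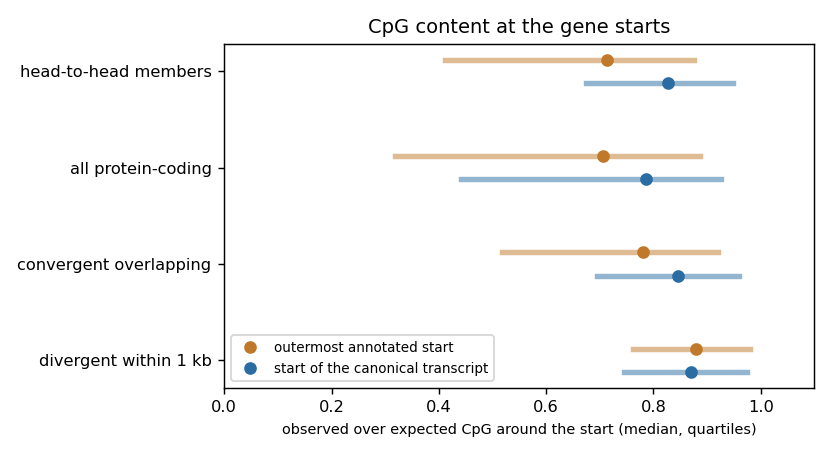
Ratio of observed to expected CpG in windows from 250 nt before to 50 nt after the outermost annotated start and the start of the canonical transcript. Dots are medians and bars run from the lower to the upper quartile over genes; the head-to-head genes go from 0.71 to 0.83, whereas divergent genes stay at 0.88 and 0.87.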

How the data were processed

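Poly(A)+ RNA of LNCaP cells, 2 biological replicates of 1 group, was sequenced as strand-oriented read pairs. According to the methods, the authors used Trimmomatic 0.30 for trimming, TopHat2 2.0.12 with Bowtie2 2.2.3 for mapping to hg19, SAMtools for sorting and HTSeq 0.6.1p1 for counting pairs per gene. The deposited values are raw counts of read pairs, without normalization, with both replicates in 1 column, so no replicate error, paired fit or fit without a replicate could be had. No other column was present (0 columns not used). Depth was 9495309 pairs counted on genes.

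Identifiers were matched without version to GENCODE version 44 on GRCh37, and 18541 of 19229 protein-coding genes of chromosomes 1 to 22 had a count; 39 pairs were lost because a gene had none. Overlaps, exons (union over all transcripts), counts per kb of exonic length and CpG were computed with Python 3.11.15, numpy 2.4.6, pandas 2.3.3, scipy 1.17.1, samtools 1.23.1 and pysam 0.24.0, and figures with matplotlib 3.10.9. The pair search was checked on genes with known positions made for that purpose. Sequences are from GRCh37. A minimum of 10 counts was used. Medians have order-statistic intervals. No test was run across genes, which are not replicates.

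The pairs named were the 12 with the highest sums, the 8 with the most shared exonic nt, the 5 longest overlaps, the 5 most unequal and 5 most equal with at least 100 counts in sum, all with a DNA repair or replication gene, and 5 with a mitochondrial gene. A few pairs and genes that this rule names are not reported here. Members and lists were chosen with earlier results of these data known.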

Additional observations from a re-analysis of the deposited data

How the results depend on the processing

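Of 31 alternative settings over 9 results, 19 moved the value little. With a minimum of 1 or 50 counts in place of 10, 89.9% or 41.3% of the genes passed, and both genes passed in 81.9% or 17.5% of the pairs. The median of 31 became 5.72 per kb of exonic length, 37.5 in the 62 pairs whose canonical transcripts overlap, and 20 where no other gene had exons opposite (the last 2 chosen after the data were seen). Spearman's rho of the 2 counts was -0.11 in pairs with at least 10 counts in sum, a condition that by itself lowers it. With exons of protein-coding transcripts only, 54.4% of the pairs shared exonic nt and rho of count and shared nt was 0.15. Observed over expected CpG was 0.76 with 100 nt before the start and 0.83 at the canonical start. Leaving out read-through genes (829 pairs remained) or overlaps under 100 nt (781 pairs) moved the shares and medians by less than their intervals. Leaving out a replicate could not be run, because the replicates share a column. No paired analysis was possible because the column carries no replicate number. The low counts are imprecise: a count of 9 had an interval from 4.12 to 17.1.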

Other observations

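Nested genes, in which a gene on the opposite strand lies wholly inside another, formed 632 protein-coding pairs. Their 590 inner genes had a median count of 29 (20 to 37). Inner genes that shared exonic nucleotides with the outer gene had a median of 69 (237 genes), and those that shared none had 14.5 (360 genes).

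Of 564 zinc finger genes, 30 (5.32%) were in head-to-head pairs, beside 8.85% of all protein-coding genes. These 30 had a median count of 53, against 12 for the other 534. The highest pair was VPS9D1/ZNF276 with 1337 and 700 counts, followed by ZSCAN29/TUBGCP4 with 161 and 1610. In the former, 2409 exonic nt of ZNF276 lay opposite FANCA. Head-to-head genes made up between 3.60% (chromosome 21) and 12.0% (chromosome 12) of the protein-coding genes of a chromosome.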
